A study of Mus musculus with 12 samples.

Results

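The canonical histone genes of the mouse were taken as every row of the deposited table whose gene name begins with Hist1h, Hist2h, Hist3h or Hist4h, which gave 70 of 55421 rows. They code for the linker histone H1 (6 members) and the core histones H2A (20), H2B (19), H3 (12) and H4 (13). The Hist1 cluster on chromosome 13 holds 56 members, the Hist2 cluster on chromosome 3 holds 10, the Hist3 cluster on chromosome 11 holds 3 and Hist4h4 lies alone on chromosome 6. Of the 70, 67 are annotated as protein coding and 3 as pseudogenes.

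The RNA came from the renal cortex of male mice, in 4 groups of 3. WT-C and WT-D are control and diabetic mice with intact ANRIL, and KO-C and KO-D are their counterparts with ANRIL deleted. ANRIL is a long noncoding RNA transcribed from the Ink4 locus, and the knockout mice carry a germline deletion of the corresponding mouse region in every tissue. The labels give 129S6/SvEvTac-Del[4C4-C5]1Lap/Mmcd as the strain of all 12 mice, wild type included, and an age of 8 weeks. Diabetes was induced with 5 daily injections of streptozotocin at 50 mg/kg, a toxin of insulin-producing cells, with 2 months of follow-up, and controls received the citrate buffer. Values are CPM, the reads of a gene scaled to a library total of 1000000. They were divided by scaling factors (TMM) where a value is called scaled. The labels call the 3 mice of a group biological replicates. The libraries held 23781928 to 67336174 counted reads. The KO-D libraries were the shallowest, at 23781928 to 28894558, and those of the other groups held 32638706 to 67336174. The deepest was WT-D replicate 1. The summed scaled CPM of 6 proximal tubule markers was 46320 to 77170 in the control libraries and 16100 to 35630 in the diabetic ones, so the labelled tissue was recognisable in each library. Leukocyte markers summed to 16.4 to 35.0 in controls and 36.7 to 114 in diabetic libraries. Along the first principal component, WT-D replicate 3 stood at 5.90 between the other diabetic libraries (47.9 to 66) and the controls (-65.4 to -33.0).

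Histones package DNA into nucleosomes, and most canonical histone genes are transcribed in S phase, when new DNA must be packaged. Their mRNAs are unusual in that they normally end just after a short conserved stem loop, which the stem-loop binding protein SLBP recognises, and carry no poly(A) tail. Some members also make longer polyadenylated transcripts, a form known from differentiated cells. The library kit used here selects polyadenylated RNA, so replication-type histone mRNA without a tail is mostly outside what was measured.

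The stem loop was searched for on the sense strand as its 16-base consensus in GENCODE M21 transcripts (build GRCm38, the build of the files). It was found in 42 of 70 members (60%). A missing match does not mean that the gene lacks a stem loop. Some members without a match, such as Hist1h2bl and Hist1h2bn with 381 exonic bases, are annotated without a 3′ UTR in which it could lie. In the longest transcript of each gene the stem loop was found in 0.092% of all genes, 10 of them outside the family. Examples follow from an abundant member with a match in each histone type, with the 16 matched bases in capitals and 5 flanking bases on either side. The search fixed most of the 16 bases, so the likeness of the capitals follows from the search. A member that differs at a fixed base counts as without a match.
Hist1h1c: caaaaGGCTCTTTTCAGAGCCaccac
Hist1h2bk: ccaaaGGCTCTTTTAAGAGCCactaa
Hist3h2a: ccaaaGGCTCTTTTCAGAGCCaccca
Hist2h3c2: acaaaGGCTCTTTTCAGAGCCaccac
Hist1h4i: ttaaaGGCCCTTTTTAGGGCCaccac
These lie, in that order, at chr13:23739507-23739532 (plus strand), chr13:22036295-22036320 (plus), chr11:58955167-58955192 (plus), chr3:96238480-96238505 (minus) and chr13:22040961-22040986 (minus), all behind the coding sequence in the 3′ UTR. The annotated transcript of Hist1h2bk ended 30 bases after the match, and those of Hist1h1c, Hist3h2a, Hist2h3c2 and Hist1h4i ran on for 840, 1643, 377 and 330 bases. Of the 42 members with a match, 21 ran on for more than 100 bases past it, and these had a median of 109 reads summed over the 12 libraries. The 21 members whose transcript ended within 100 bases of the match had a median of 4 reads, as had the 28 members without a match. A poly(A) signal lay in the last 60 bases of 17 members, which had a median of 116 reads against 4 for the other 53. These are descriptions of the annotation and the reads and were not tested.

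H2B was the histone type on which the comparisons turned, and its copies can barely be told apart by sequence. Hist1h2bq, Hist1h2br, Hist1h2bk, Hist1h2bl, Hist1h2bg and Hist1h2bn are 97.4 to 100% identical over the 381 coding bases. These 6 are the H2B members called lower in KO-D against WT-D further on, so the group is defined by an outcome of these data. Coding identity does not set them apart, because other Hist1 genes such as Hist1h2be (97.4 to 98.4% identical to them) are about as similar. Coding bases 321 to 380 are shown for these 6 genes and for Hist1h2bc, with capitals where a base differs from Hist1h2bc, to show how few positions could assign a read to one copy.
Hist1h2bc: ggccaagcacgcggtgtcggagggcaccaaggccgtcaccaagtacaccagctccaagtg
Hist1h2bq: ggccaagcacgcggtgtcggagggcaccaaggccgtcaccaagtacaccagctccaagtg
Hist1h2br: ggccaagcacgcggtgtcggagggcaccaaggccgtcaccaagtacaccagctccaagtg
Hist1h2bk: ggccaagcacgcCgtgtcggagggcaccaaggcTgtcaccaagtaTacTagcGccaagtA
Hist1h2bl: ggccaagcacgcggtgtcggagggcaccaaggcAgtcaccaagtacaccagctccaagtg
Hist1h2bg: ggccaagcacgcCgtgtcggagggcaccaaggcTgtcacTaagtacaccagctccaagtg
Hist1h2bn: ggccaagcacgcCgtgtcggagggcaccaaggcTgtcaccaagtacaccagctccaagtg
Over the whole coding sequence, Hist1h2bc differs from Hist1h2bq and Hist1h2br at 2 bases and from Hist1h2bn at 9, whereas Hist2h2be differs from it at 50 and Hist3h2ba at 38. All of the 7 genes shown lie on chromosome 13. Hist1h2bl (chr13:21715763-21716143, minus strand) and Hist1h2bn (chr13:21754123-21754503, plus) are annotated as a single coding exon of 381 bases with no UTR. Hist1h2bc (chr13:23684199-23692908, plus) has 1156 exonic bases, and Hist1h2bq and Hist1h2br have 2015 and 2212. Of all stretches of 100 bases in Hist1h2bq, 94.8% occur in another member too, against 86.4% in Hist1h2br, 70.8% in Hist1h2bk, 62.1% in Hist1h2bl, 52.1% in Hist1h2bn, 44.9% in Hist1h2bg, 25.4% in Hist1h2bc and 0 in Hist2h2be and Hist3h2a. How reads with several best positions were counted is not given in the sources used here. The paper's smallest number of uniquely aligned reads lies below the 23781928 reads counted in the smallest library here. The source of that difference was not tested. The split of reads among the copies is uncertain, as is whether a read was counted on more than 1 copy. Hist1h2br and Hist1h2bk had nearly equal reads in several libraries. These were 351 and 356 in WT-C replicate 1, 426 and 429 in WT-C replicate 2, and 1019 and 1016 in WT-D replicate 1. In KO-D replicate 3 they had 95 and 80. Whether the same reads were counted on both genes was not tested. The 6 genes cannot be taken as independent measurements, nor a count of calls among them as a count of separate results.

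Histone reads were few and uneven. Of the 70 members, 17 had no read in any library, and 11 of these were H2A genes. A further 31 had 1 to 99 reads over the 12 libraries. Hist1h1c, which codes for the linker histone H1.2, and Hist1h2bc, an H2B gene, together took 64.2% of the 108942 reads on members. Per kb of exon, the mean deposited CPM was 64.9 for Hist1h2bc and 54.6 for Hist1h1c, followed by 21.5 for Hist1h2bl, 19.03 for Hist1h2bk, 12.05 for Hist1h2bn and 10.7 for Hist1h4i, an H4 gene. The most abundant H3 member, Hist2h3c2, stood at 1.91 CPM per kb and the most abundant H2A member, Hist3h2a, at 2.49. Only 25 members passed the filter on low values and were tested, namely 3 of H1, 2 of H2A, 15 of H2B, 1 of H3 and 4 of H4. The other 45 members were not tested.

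Neighbouring H2A and H2B genes differed widely in counted reads. In 14 places an H2A and an H2B member are transcribed away from each other, with starts 173 to 306 bases apart. In 13 of these pairs the H2B member had the higher CPM per kb. Hist1h2bc had 33205 reads over the 12 libraries, and Hist1h2ac, whose start lies 251 bases away, had 364. Hist1h2bk had 4322 and Hist1h2ah 10, Hist1h2bq had 4974 and Hist1h2ao none, and Hist1h2bl had 3811 and Hist1h2ai none. The exception was Hist3h2a with 2203 reads beside Hist3h2bb-ps, a pseudogene with 18. In 19 of the 20 H2A members 109 to 144 bases overlap an annotated miRNA row on the opposite strand, and those miRNA rows held 0 reads. The part of that overlap in the low H2A counts was not tested.

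**Figure D1:**
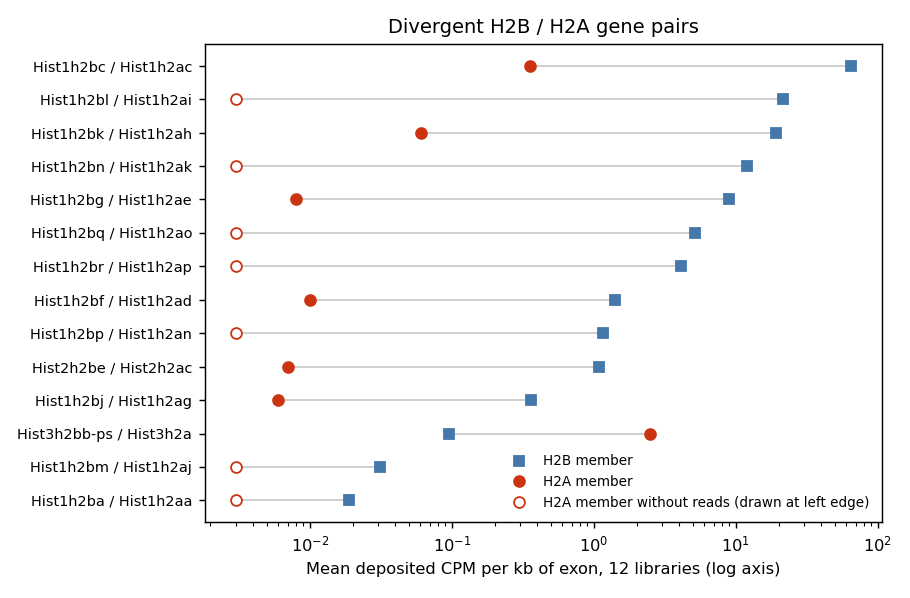
Mean deposited CPM per kb of exon over the 12 libraries (log axis) of the 14 divergently transcribed H2B (squares) and H2A (circles) gene pairs, ordered by the H2B member. The H2B member lies to the right in 13 of 14 pairs, 7 H2A members had no reads (open circles at the left edge), and Hist3h2a beside its pseudogene is the exception.

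Promoters were read from RefSeq (GRCm38.p6, 250 bases before to 50 after the start), which matched 62 of 70 members. Both strands were searched for the octamer ATTTGCAT, the element by which OCT1 binds histone H2B promoters, for the CCAAT box (CCAAT) and for the TATA box (TATAAA). The octamer was present in 37.5% of H2B and 38.9% of H2A promoters, in no H1, H3 or H4 promoter, and in 1.74% of all 32851 promoters. CCAAT was present in 85.5% of members against 37.4% of all promoters, and in 25% of H4 promoters. TATAAA was present in 56.5% of members against 13.6% of all. The 150 bases before the start of Hist1h2bk, which fell in KO-D, and of Hist3h2a, which rose there, are shown with octamer and CCAAT matches on either strand in capitals, because both hold the octamer and the CCAAT box. The exact letters TATAAA were found in the searched window of Hist1h2bk, outside the 150 bases shown, and not in that of Hist3h2a. The bases shown for Hist3h2a hold tatataag, which a search for TATAAA does not count. The 2 genes are therefore not compared on the TATA box.
Hist1h2bk: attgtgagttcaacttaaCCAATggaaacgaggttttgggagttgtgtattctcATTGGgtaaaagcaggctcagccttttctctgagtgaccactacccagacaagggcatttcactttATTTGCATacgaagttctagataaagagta
Hist3h2a: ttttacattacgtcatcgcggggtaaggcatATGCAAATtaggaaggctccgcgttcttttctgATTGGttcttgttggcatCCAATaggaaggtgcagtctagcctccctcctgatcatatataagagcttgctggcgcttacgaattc
They lie at chr13:22035671-22035820 and chr11:58954535-58954684, both on the plus strand. Among the 6 near-identical H2B genes, only the promoters of Hist1h2bk and Hist1h2bg held the octamer in this window. A match is a description of the letters and not a binding site.

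In the kidneys of diabetic knockout mice the near-identical H2B genes were far below their level in knockout controls, and in every other group. Scaled CPM of Hist1h2bl in the WT-C libraries was 11.8, 11.8 and 10.3, that of the WT-D libraries 8.83, 6.01 and 12.1, that of the KO-C libraries 11.4, 11.3 and 12.3, and that of the KO-D libraries 2.15, 2.92 and 2.29. Scaled CPM of Hist1h2bq in the WT-C libraries was 13.5, 14.6 and 12.5, that of the WT-D libraries 14.0, 6.60 and 15.2, that of the KO-C libraries 14.9, 13.5 and 17.4, and that of the KO-D libraries 2.56, 3.32 and 2.94. For both genes every KO-D library lay below every other library, and WT-D replicate 2 was the lowest of the remaining 9. The same held for Hist1h2br, Hist1h2bk, Hist1h2bg and Hist1h2bn. Their sum lay between 10.96 and 15.8 among KO-D libraries, between 61.5 and 75.8 among KO-C libraries and between 57.8 and 63.8 among WT-C libraries, and the WT-D libraries had 60.7, 29.1 and 69.5. It made up 22.0 to 29.8% of all histone CPM in the libraries outside KO-D other than WT-D replicate 2 (14.9%), and 4.9 to 7.5% in KO-D. Any read counted on more than 1 copy would enter the sum and the total more than once, so these are shares of counts and not of mRNA. Across the 12 libraries the log2 values of the 6 genes correlated with r of 0.981 to 0.999 in their 15 pairs. This describes genes grouped by their fall, with values that share libraries and reads whose assignment to a copy is uncertain.

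**Figure D2:**
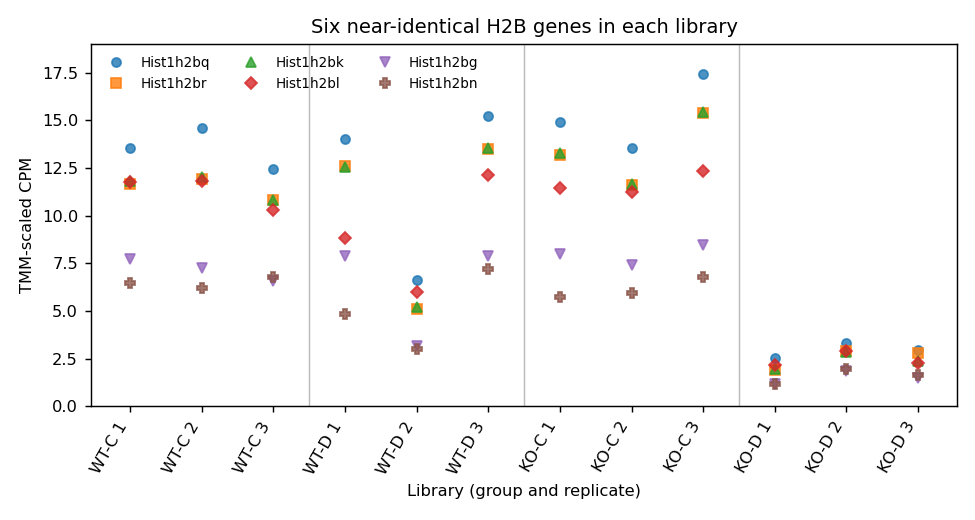
TMM-scaled CPM of the 6 near-identical H2B genes (symbols) in each of the 12 libraries, with vertical lines between the groups. All 6 lie at their lowest in the 3 KO-D libraries, and WT-D replicate 2 lies between these and the other 8 libraries.

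Against their own controls, diabetic knockout kidneys had 15 of 25 tested members with an adjusted p under 0.05 in limma with Benjamini-Hochberg adjustment, where 31.1% of all 18461 genes tested were called. Of these, 10 were lower (all genes lower: 17.5%) and 5 were higher (13.6%). The median log2 change of the 25 tested members was -0.08, beside 0.022 over all genes. The count was 9 when KO-C replicate 2 or KO-D replicate 3 was left out. All 10 members that fell were H2B genes, and they included the 6 near-identical copies. Not every gene of like coding sequence was called. Hist1h2be, 97.4 to 98.4% identical to the 6 in coding sequence, changed by -0.10 (limma adjusted p = 0.8603). Hist1h2bh, 97.1 to 98.4% identical to them, changed by 0.71 (limma adjusted p = 0.4289). Hist1h2bl changed by -2.22 on the log2(CPM + 0.1) scale (SE 0.22, limma adjusted p = 5.093e-05), and Hist1h2bk by -2.45 (SE 0.29, adjusted p = 0.0001222). Hist1h2bq, Hist1h2br, Hist1h2bg and Hist1h2bn changed by -2.34, -2.37, -2.34 and -1.91. The pseudocount of 0.1 makes such changes smaller than the ratio of CPM in low genes. These 6 calls were kept in each of the alternatives tried, with every library left out in turn.

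Diabetic knockout was then compared with diabetic wild type, the contrast that addresses what the deletion changes once diabetes is present. Of the 25 tested members 7 were called, beside 5.53% of all genes, with 6 lower (all genes lower: 5.43%) and 1 higher (0.103%). The 6 lower members were the H2B genes grouped above, a group that this call defines. Their log2 changes were -1.54 to -1.98, with limma adjusted p of 0.01003 to 0.01091. No gene of all 18461 passed 0.01 in this contrast. The calls of the 6 were lost without WT-D replicate 1 (log2 -1.79 to -1.52, adjusted p 0.05085 to 0.05226), WT-D replicate 3 (-1.72 to -1.23, 0.06132) or KO-D replicate 3 (-1.98 to -1.57, 0.07482), and when only WT-D and KO-D entered the fit (0.09694). The 1 higher member was Hist3h2a, described further on.

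In wild-type mice none of these genes passed the test for diabetes. The 6 log2 changes from WT-C to WT-D were -0.45 to -0.26 with adjusted p of 0.2292 to 0.556, and without WT-D replicate 2 they were positive for Hist1h2bq, Hist1h2br, Hist1h2bk and Hist1h2bg, as they were without scaling for these 4 and Hist1h2bl. Without WT-D replicate 3, Hist1h2bl (-0.61, adjusted p = 0.0364) and Hist1h2bn (-0.74, 0.03938) passed. For WT-D against WT-C limma called 0 of the 25 tested members, where 22% of all genes were called (13.7% higher and 8.24% lower), and 4 members had an unadjusted p under 0.05. The quasi-likelihood test of edgeR called 1 (Hist1h4h, higher) and DESeq2 called 1 (Hist1h2bc, lower). Leaving out WT-D replicate 3 gave 4 calls, and leaving out WT-C replicate 2 or WT-D replicate 2 gave 1. The median log2 change of the members was -0.106, beside 0.05 over all genes.

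The difference of the diabetes effect between the genotypes was tested directly as an interaction. For the 6 H2B genes it was -2.18 to -1.46 on the log2 scale, with limma adjusted p of 0.07695 for 5 of them and 0.092 for Hist1h2bn, so it did not pass. Of 25 members 0 were called, as were 0% of all genes, and 8 members had an unadjusted p under 0.05. edgeR also called 0. DESeq2 called 7, the 6 H2B genes and Hist3h2a, where it called 4.61% of all genes. Without WT-D replicate 2 limma called 7 (the 6 and Hist1h2bj), and without KO-D replicate 2 it called 5. Between the control groups, KO-C against WT-C, 0 members were called by limma, edgeR and DESeq2, beside 0% of all genes in limma, and 1 had an unadjusted p under 0.05.

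**Figure D3:**
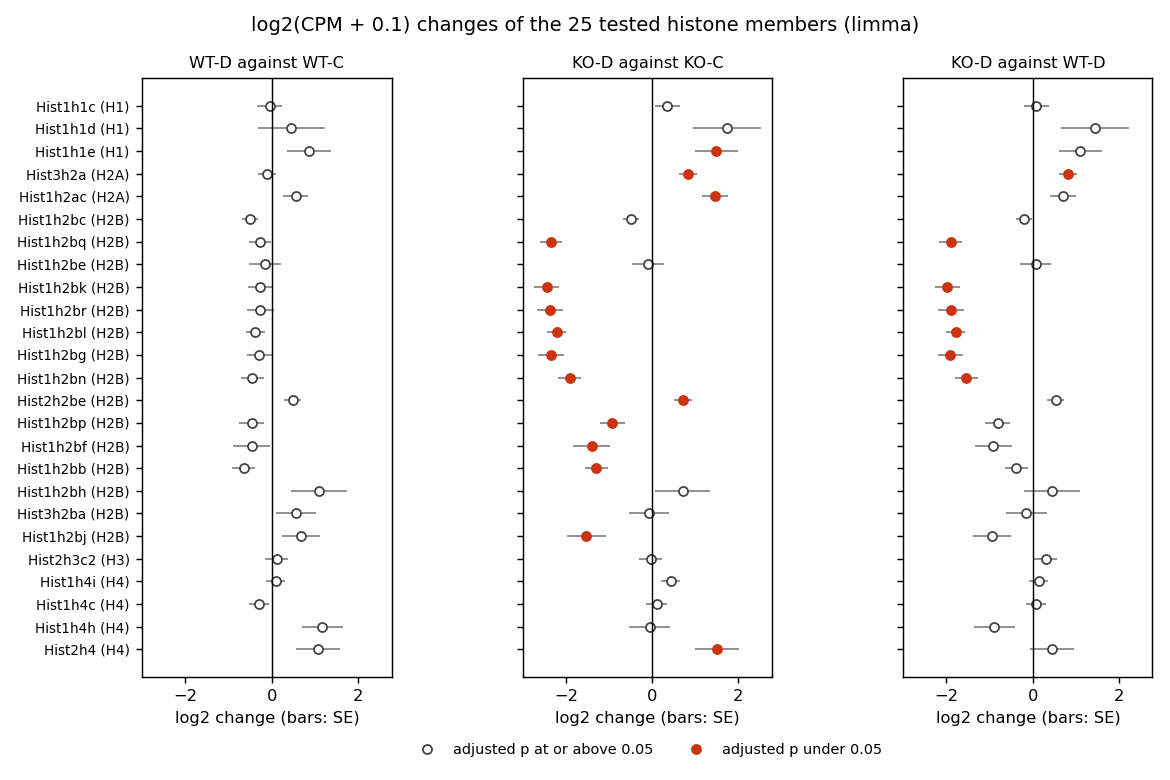
Change of the 25 tested members on the log2(CPM + 0.1) scale with its SE in 3 comparisons, grouped by histone type, with filled points where limma's adjusted p was under 0.05. The 6 near-identical H2B genes lie near -2 in both comparisons that involve KO-D and between -0.45 and -0.26 in WT-D against WT-C.

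The 10 members that fell in KO-D against KO-C and the 5 that rose differed in their annotation. The 10 had 381 to 2212 exonic bases (median 492), a GC content of 45.9 to 63.3% (median 57.6) and shared 31.1 to 94.8% of their stretches of 100 bases with other members. The 5 that rose had 1630 to 2620 exonic bases (median 2146), a GC content of 45.3 to 51.2% (median 45.9) and shared 0 to 24.7%. A trend on GC content ran through the libraries as a whole. Over the 18430 tested genes with a known GC content and length, the slope of a library's log2 deviation from the 12-library mean was -0.383, -0.076 and -0.324 per 10 percentage points of GC in KO-D, and -0.025 to 0.196 in the other 9 libraries. The KO-D libraries thus had the 3 lowest slopes as well as the 3 lowest values of the 6 genes, with mean log2 values of 0.90 to 1.42.

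**Figure D4:**
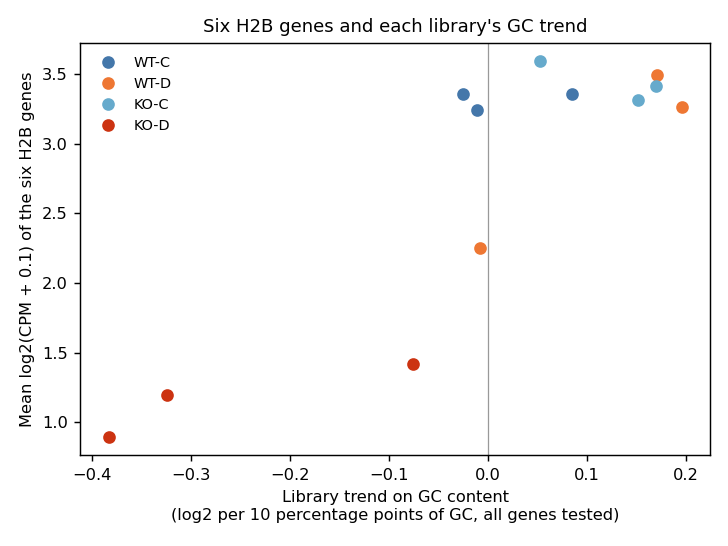
Mean log2(CPM + 0.1) of the 6 near-identical H2B genes against the library's trend on GC content over all genes tested (log2 per 10 percentage points of GC), 1 point per library, coloured by group. The 3 KO-D libraries lie at 0.90 to 1.42 and at the lowest slopes, and WT-D replicate 2 lies at 2.25 with a slope near 0.

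With the trend on GC content and length of each library removed, an alternative chosen after seeing the data, the 6 genes fell by 1.15 (Hist1h2bn) to 2.55 (Hist1h2br) on the log2 scale in KO-D against KO-C, with adjusted p of 7.661e-05 to 0.001576. The correction uses the annotated transcripts. Hist1h2bq and Hist1h2br entered at 47.1 and 45.9% GC with 2015 and 2212 exonic bases, and Hist1h2bk at 58.8% with 476. In that order, the changes of -2.34, -2.37 and -2.45 became -2.50, -2.55 and -1.85, so the range depends on the annotation. In KO-D against WT-D the number of genes called in all fell from 1021 to 38. The 38 include the 5 copies other than Hist1h2bn, which changed by -0.97 (Hist1h2bl) to -1.98 (Hist1h2br) with adjusted p of 0.04241 to 0.04573, and Hist1h2bn changed by -0.74 (adjusted p = 0.153). Proximal tubule and leukocyte marker sums moved with diabetes in both genotypes and overlapped between WT-D (16100 to 35630 and 43.3 to 114) and KO-D (16180 to 21890 and 36.7 to 86.8). The tubule sum was mostly Kap. Mean scaled CPM of Slc34a1 was 1501 in WT-D and 977 in KO-D, and that of Slc5a2 was 73.5 and 45.0, with overlap between the libraries. The sums for podocytes, endothelium, thick ascending limb and distal tubule, and red blood cells overlapped between WT-D and KO-D too. The sums of 3 fibroblast and pericyte markers (95.4 to 139 in WT-D, 41.1 to 67.6 in KO-D) and of 3 collecting duct markers (208.9 to 226.4 and 133.8 to 184) did not overlap and were lower in KO-D. Of the collecting duct markers only Aqp2 had a lower mean (123.1 in WT-D, 60.6 in KO-D). Scnn1b (47.3 and 48.2) and Atp6v1b1 (49.9 and 51.2) did not. The part of these markers in the H2B values was not tested, and in bulk RNA fewer cells of a type and less RNA per cell cannot be told apart.

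Hist1h2bc, the H2B gene with most reads, had smaller log2 changes than its near-identical copies in KO-D. Its scaled CPM in the WT-C libraries was 116, 81.3 and 93.3, that of the WT-D libraries 65.5, 53.3 and 87.9, that of the KO-C libraries 78.3, 84.5 and 84.4, and that of the KO-D libraries 56.8, 53.4 and 66.3. The KO-D libraries lay below all control libraries and overlapped WT-D. The log2 change was -0.71 (SE 0.18) in KO-D against WT-C with a limma adjusted p of 0.008171, and without scaling it was -0.17 (0.3489). It was -0.49 in KO-D against KO-C (0.05556) and -0.50 in WT-D against WT-C (0.06229), where leaving out WT-D replicate 3 gave -0.68 (0.007417) and leaving out WT-C replicate 2 gave -0.61 (0.04508). In KO-D against KO-C, -0.49 became -0.61 (0.009057) with the GC and length trend removed. The mean log2 value of the 6 copies minus that of Hist1h2bc was -4.94 to -4.33 among the KO-D libraries and -3.50 to -2.77 in the other 9, so the distance between them was larger in each KO-D library.

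A further 4 H2B genes fell in KO-D against KO-C. Scaled CPM of Hist1h2bb was 0.675, 0.508 and 0.725 in KO-C and 0.253, 0.197 and 0.149 in KO-D, without overlap, and it changed by -1.30 on the log2 scale (SE 0.27) at a limma adjusted p of 0.002916. In wild type Hist1h2bb was at 0.532, 0.477 and 0.510 in control and 0.297, 0.252 and 0.310 in diabetic mice, also without overlap, and limma did not call that difference. Hist1h2bp changed by -0.93 (adjusted p = 0.02617), Hist1h2bf by -1.41 (0.02464) and Hist1h2bj by -1.53 (0.01924), the last with 9, 11 and 13 reads in KO-C libraries and 1, 0 and 5 in KO-D. The WT-C libraries had 1, 2 and 5 reads on Hist1h2bj, as low as KO-D, and limma did not call it in KO-D against WT-C. The call of Hist1h2bp was lost without KO-C replicate 2 or 3 or any KO-D replicate (adjusted p 0.05922 to 0.09), and without scaling (0.08608). That of Hist1h2bf was lost without KO-C replicate 1 or 2 or KO-D replicate 3 (0.08089 to 0.1174) or without scaling (0.05028), and that of Hist1h2bj without KO-C replicate 2 or 3 or KO-D replicate 1 or 2 (0.05099 to 0.07708). With the GC and length trend removed all 3 missed the threshold, at 0.05091, 0.1553 and 0.1856, and Hist1h2bb stayed below it at 0.04277.

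The 5 members that rose in KO-D against KO-C were Hist3h2a and Hist1h2ac (H2A), Hist2h2be (H2B), Hist1h1e (H1) and Hist2h4 (H4). Scaled CPM of Hist3h2a in the WT-C libraries was 5.62, 4.57 and 3.601, that of the WT-D libraries 3.59, 4.61 and 4.47, that of the KO-C libraries 4.08, 5.04 and 3.54, and that of the KO-D libraries 6.82, 6.96 and 8.80. All 3 KO-D libraries lay above the other 9. Its log2 change was 0.82 (SE 0.21) in KO-D against KO-C with a limma adjusted p of 0.01015, and 0.057 without KO-D replicate 3. In KO-D against WT-D it was also 0.82 (0.04065), a call that was lost without WT-D replicate 1 or 3, KO-C replicate 1 or any KO-D replicate (adjusted p 0.05231 to 0.2146), with the replicate number as a block (0.08208), without scaling (0.0662), with the compared groups alone (0.09738) and with the GC and length trend removed (0.1077). All 2146 bases of Hist3h2a lie within the span of Trim17 on the same strand, whose own row had 3 to 18 reads per library.

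Scaled CPM of Hist1h2ac in the WT-C libraries was 0.598, 0.449 and 0.578, that of the WT-D libraries 0.828, 0.757 and 0.928, that of the KO-C libraries 0.264, 0.508 and 0.666, and that of the KO-D libraries 1.23, 1.28 and 1.78. KO-D lay above the other 3 groups, and WT-D lay above WT-C without overlap. The log2 change was 1.45 (SE 0.30) in KO-D against KO-C with a limma adjusted p of 0.002939, kept with each library left out, and 0.55 in WT-D against WT-C (0.1956), which without scaling was 0.88 (0.04775). Hist1h2ac is the H2A partner of Hist1h2bc in the pairs described above, and its annotated transcript runs 2010 bases past the stem loop.

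Hist2h2be, an H2B gene of the Hist2 cluster that shares no stretch of 100 bases with another member, went the opposite way to the near-identical Hist1 copies named above. Its scaled CPM in the WT-C libraries was 1.99, 1.82 and 1.87, that of the WT-D libraries 2.57, 2.41 and 3.13, that of the KO-C libraries 2.93, 2.06 and 2.17, and that of the KO-D libraries 4.07, 3.38 and 4.40. KO-D was above every other library, and WT-D was above WT-C without overlap. The log2 change was 0.71 (SE 0.21) in KO-D against KO-C with a limma adjusted p of 0.01958, and 1.02 in KO-D against WT-C (0.00216), the latter kept in each alternative tried. The first was lost without KO-C replicate 2 or 3 or KO-D replicate 1 or 3 (adjusted p 0.05641 to 0.08762) and with the GC and length trend removed (0.0616). In WT-D against WT-C it was 0.48 (0.1073), and without scaling 0.85 (0.01438).

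The linker histone genes stood out in 1 library. Scaled CPM of Hist1h1e, which codes for H1.4, was 0.916, 1.21 and 4.40 in KO-D and 0.233 to 0.977 in the other 9 libraries. Hist1h1d (H1.3) was at 0.316, 1.74 and 6.87 in KO-D and at 0.102 to 0.826 elsewhere. Hist1h1c was at 49.0, 104 and 129 in KO-D and at 57.4 to 110 elsewhere. KO-D replicate 3 was the highest of all 12 libraries for each of these 3 genes. The log2 change of Hist1h1e in KO-D against KO-C was 1.49 (SE 0.51, limma adjusted p = 0.0393). Without KO-D replicate 3 it was 0.83 (0.1871), and the call was also lost without KO-C replicate 1, 2 or 3 (0.07234 to 0.09769) and with the replicate number as a block (0.05683). Hist1h1c changed by 0.35 (adjusted p = 0.3908), which became 0.75 (0.01973) without KO-D replicate 1. Hist1h1e shares 496 bases on the same strand with Hist1h2be, whose scaled CPM was 4.67, 9.26 and 20.8 in KO-D and 7.84 to 11.1 elsewhere, so reads in that stretch could not be assigned to 1 of them.

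**Figure D5:**
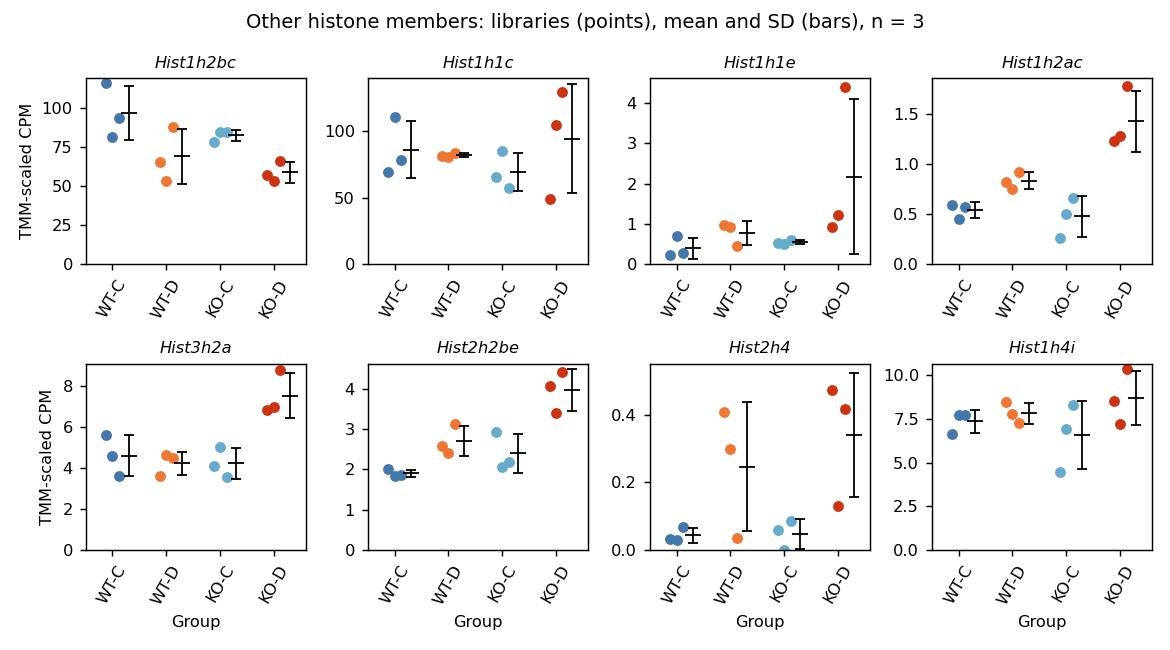
TMM-scaled CPM of 8 further members by group, with 1 point per library and the mean with its SD beside it (n = 3). Hist3h2a, Hist1h2ac and Hist2h2be are highest in the 3 KO-D libraries, Hist1h2bc lies below both control groups there with overlap to WT-D, and Hist1h1e and Hist1h1c spread widely among the KO-D libraries.

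Most H4 and H3 members were low, apart from Hist1h4i. Hist2h4 had 15, 4 and 14 reads in the KO-D libraries, 2, 0 and 3 reads in KO-C, 33, 13 and 1 reads in WT-D, and 1, 1 and 2 reads in WT-C. Its log2 change in KO-D against KO-C was 1.51 (SE 0.51, limma adjusted p = 0.03758), a call that was lost without KO-C replicate 1 or 2 or KO-D replicate 1 or 3 (0.06415 to 0.1309). In WT-D against WT-C it was 1.08 (0.1367), and 1.68 (0.01517) without WT-D replicate 3. Hist1h4i, the H4 member with most reads, was at 7.22 to 10.3 scaled CPM among KO-D libraries, 4.46 to 8.29 among KO-C, 7.26 to 8.46 among WT-D and 6.61 to 7.74 among WT-C, with overlap between all groups. Hist2h3c2, the only H3 member tested, was at 1.58 to 2.97 scaled CPM among KO-D libraries, 1.88 to 2.61 among KO-C, 1.46 to 1.96 among WT-D and 1.21 to 1.80 among WT-C. Hist2h2ac, Hist1h3d and Hist4h4 lead their type and cluster in level, had 2, 48 and 13 reads over the 12 libraries, and were not tested. Hist3h2ba, the leading H2B member of the Hist3 cluster, was tested and was at 0 to 0.378 scaled CPM.

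Summed over all 70 members, scaled CPM was 213.6 ± 63.0 in KO-D, 254.3 ± 12.2 in KO-C, 239.6 ± 42.9 in WT-D and 278.8 ± 15.04 in WT-C (SD, n = 3). The groups overlapped, with KO-D libraries at 151.5 to 277.5 and KO-C libraries at 241.9 to 266.2. By type, the H2B sum was 89.5 ± 15.6, 166.4 ± 8.63, 136.6 ± 40.7 and 173.4 ± 18.1 in the same order, and the KO-D range of 77.8 to 107.3 lay below both control groups. The H2A sum was 9.03 ± 1.37, 4.77 ± 0.71, 5.19 ± 0.51 and 5.20 ± 1.04, and the KO-D range of 8.15 to 10.6 lay above every other library. The H1 and H4 sums overlapped between KO-D and each other group. The H3 sum of KO-D (1.94 to 3.33) overlapped KO-C and WT-D and lay above WT-C (1.26 to 1.83). Any read counted on more than 1 copy would enter these sums more than once.

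In KO-D against WT-C, the contrast of diabetic knockout with healthy wild type, 15 of 25 members were called beside 40.1% of all genes, 10 lower (all genes: 20.8%) and 5 higher (19.3%). The contrast shares the KO-D libraries with the contrast of KO-D and KO-C. Without scaling the split was 7 lower and 9 higher, where the median of all genes moved by 0.50 on the log2 scale. Averaged over the genotypes, diabetes gave 14 calls (43.5% of all genes), 10 lower and 4 higher, and 7 lower and 6 higher without scaling. The 6 near-identical H2B genes were lower with and without scaling in both.

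Genes of the cell cycle, of histone mRNA processing and of histone handling were described as lists, by their counts of limma calls at an adjusted p of 0.05, with the median log2 change beside that of all genes (0.05 for the diabetes effect in wild type and 0.022 for that in knockout mice). Of all genes, 13.7% rose and 8.24% fell in wild type, and 13.6% rose and 17.5% fell in the knockout, and the counts of each list are to be read against these shares. Of 20 mitosis and proliferation genes, 17 rose with diabetes in wild type and 15 in the knockout, with medians of 1.79 and 1.49. Mki67, the gene of the proliferation antigen Ki-67, was at 0.99 ± 0.31 scaled CPM in control and 6.78 ± 1.41 in diabetic wild-type mice, and at 1.48 ± 0.78 and 7.82 ± 0.86 in knockout mice (SD, n = 3). Tpx2, a spindle assembly factor, changed by 3.03 and 2.35 on the log2 scale (limma adjusted p = 6.219e-05 and 0.0001601), and Ccnb1, the mitotic cyclin B1, by 3.00 and 1.58.

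Of 35 tested genes of DNA replication and S phase, 14 rose and 2 fell with diabetes in wild type (median 0.489), and 8 rose and 4 fell in the knockout (median 0.42). The share that rose was above that of all genes in both genotypes, and the share that fell in the knockout was below it. The helicase subunit gene Mcm6 rose by 2.00 and 1.52 on the log2 scale (limma adjusted p = 0.002011 and 0.004998). The wild-type count became 10 without WT-D replicate 1, and the knockout count became 7 without KO-D replicate 3 and 21 without scaling. Of 18 histone chaperone genes, 5 rose and 1 fell in wild type (median 0.167) and 4 rose and 2 fell in the knockout (median 0.153). The shares that fell were below those of all genes. The wild-type chaperone count was 2 or 3 without WT-C replicate 1, 2 or 3 or WT-D replicate 1 or 2, and 2 with the replicate number as a block. The knockout count was 3 without KO-D replicate 3.

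Of 17 tested genes for histone mRNA processing and transcription, limma called 0 in wild type (median 0.098), edgeR and DESeq2 called 1 each, and limma called 4 without WT-D replicate 3. In the knockout 2 rose and 4 fell (median 0.089), shares close to those of all genes, and 3 were called without KO-D replicate 3. Lsm10, a part of the U7 snRNP that takes part in histone 3′ end processing, fell by 0.80 on the log2 scale (limma adjusted p = 0.01077), and by 0.46 without scaling (0.118). Slbp, named here after its values were seen, was at 15.04 ± 1.79 scaled CPM in KO-C and 22.0 ± 2.99 in KO-D (SD, n = 3). It changed by 0.54 (limma adjusted p = 0.04603), and by 0.22 (0.4018) with the GC and length trend removed. The call was also lost without WT-D replicate 1 or 2, KO-C replicate 2 or 3 or KO-D replicate 2 or 3 (0.05287 to 0.1745) and with the replicate number as a block (0.06227).

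Of 10 tested replication-independent histone variants, 1 rose and 2 fell in wild type (median -0.252), and 1 rose and 3 fell in the knockout (median -0.3). With 10 genes these counts are within 2 genes of the shares over all genes. H2afv (H2A.V) fell by 0.72 and 1.19 on the log2 scale (limma adjusted p = 0.01565 and 0.0004807). The first became -0.63 (0.08073) without WT-D replicate 1, -0.57 (0.07346) without WT-D replicate 2 and -0.34 (0.1306) without scaling. The count of variants called fell to 1 in wild type without WT-D replicate 1 or 2. In the knockout it fell to 1 without KO-C replicate 2 or 3 or KO-D replicate 1 or 3, and to 2 without KO-C replicate 1 or KO-D replicate 2.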

How the data were processed

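Polyadenylated RNA of the renal cortex was sequenced from 12 mice, 3 in each of 4 groups taken from the labels. The authors aligned reads with STAR 2.7.3a to mm10, counted them per gene and deposited CPM values, which sum to 1000000 in each library (R 3.6.1 and edgeR 3.28.0 are named in the submitters' processing notes). How reads with several best positions were counted is not given in the sources used here. The study's other deposited table holds log2 fold changes and adjusted p-values of the authors' own comparisons and was not used.

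All deposited CPM values were whole multiples of 1 read, within 0.01 read for 100% of values above 0. Genes were filtered on low values (filterByExpr, minimum of 10 reads and total of 15), which left 18461 genes and dropped 36960. limma 3.58.1 (R 4.3.3, moderated with a trend) was fitted on log2(TMM-scaled CPM + 0.1) over all 4 groups with 8 residual degrees of freedom, with the Benjamini-Hochberg adjustment taken over every gene tested. A gene was called at an adjusted p under 0.05. edgeR 4.0.16 and DESeq2 1.42.0 on the recovered reads were alternatives, beside other scalings, pseudocounts, filters and thresholds, a replicate block, each library left out in turn, and a GC and length correction added after the data were seen. The fit was tested on simulated data.

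The members and gene lists were chosen with earlier results of these data known. Members named are those called in any comparison, the 10 with the highest mean and the leader of each histone type and cluster. List genes named are among the 3 with the smallest p in WT-D against WT-C and the 1 with the highest mean, other than Slbp. The deletion could not be checked from a row for ANRIL, which was not matched in the table.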

Additional observations from a re-analysis of the deposited data

How the results depend on the processing

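Over the alternatives tried, the 6 near-identical H2B genes kept their direction and call in KO-D against KO-C. The count of members called in WT-D against WT-C (0) became 1 with RLE scaling, edgeR, DESeq2 or the GC and length trend removed, and 3 without scaling, which shifted the median of all genes by 0.366 there. For KO-D against KO-C the count of 15 became 9 with a mean of at least 1 CPM required (fewer members tested) and 8 at an adjusted p under 0.01, where 17.1% of all genes were called. For KO-D against WT-D the count of 7 became 0 at 0.01 and with the compared groups alone. For the interaction, 0 became 7 with DESeq2. With each library left out in turn, the counts ranged from 0 to 4 in WT-D against WT-C, 9 to 16 in KO-D against KO-C, 12 to 16 in KO-D against WT-C, 0 to 8 in KO-D against WT-D, 0 to 7 for the interaction and 13 to 16 for diabetes averaged over the genotypes. In WT-D against WT-C the log2 change reversed without scaling for Hist1h2bq (0.116), Hist1h2br (0.117), Hist1h2bk (0.117), Hist1h2bl (0.001) and Hist1h2bg (0.092). With 1 library left out, it ranged from -0.473 to 0.111 for Hist1h2bq, -0.499 to 0.182 for Hist1h2br, -0.497 to 0.172 for Hist1h2bk and -0.498 to 0.141 for Hist1h2bg, the positive values being those without WT-D replicate 2. The cause was not tested. Samples with the same replicate number did not deviate together (correlations of -0.35 to 0.295 in 18 pairs, with 1 of 12 libraries correlating best with its own number). This gave no sign of a pairing by number and cannot exclude one. The column name of replicate 3 carries another number in KO-D than in the other groups. With the replicate block the count of members called was 14 in KO-D against KO-C, 15 against WT-C and 6 against WT-D, 14 for diabetes averaged over the genotypes, and 0 in the other 3 comparisons. The 45 members that the filter on low values removed were not tested, and no statement on a difference is made for them.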
